A study of Mus musculus with 6 samples.

Results

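The genes described here are 37 interferon-stimulated genes, a set known mainly as targets of type I interferon. They were chosen by name from the 33157 rows of the count table. The rule held no value from these libraries, but the list was made with earlier results of these data known. All 37 had a row, all had counts, and all passed the filter on low counts, which kept 13483 genes. Group 3 innate lymphoid cells (ILC3), tissue-resident lymphocytes that make interleukin-22, were sorted from wild-type mouse small intestine as CD45+, lineage-negative, CD127+ and KLRG1- cells with dim CD45 and high CD90.2. By the series' design text, every culture received recombinant interferon-γ (IFN-γ, the type II interferon) at 20 ng/mL for 4 h. The sample labels name the control group without naming IFN-γ, so that the controls had it rests on that text alone. The 3 libraries labelled control had IFN-γ without IGF-1, and the other 3 had IFN-γ together with insulin-like growth factor 1 (IGF-1) at 200 ng/mL. There was no library without IFN-γ and none with a type I interferon, so induction by either interferon is not measured, and each comparison is of IGF-1 on top of IFN-γ. Nothing in the labels tells whether libraries with different numbers stem from different animals or culture wells, so a p-value here reflects how far these libraries spread, and that spread may be technical.

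With IGF-1, none of the 37 genes passed an adjusted p of 0.05 by edgeR's quasi-likelihood test, against 0.497% of all genes tested (67 of 13483, called in either direction). The levels of 25 members were lower on average with IGF-1 and those of 12 were higher. The median log2 fold change was -0.19 (-12.3%), against -0.01 over all genes tested, of which 51.3% had a negative sign. Without adjustment, at a p under 0.05, 8 members were lower (Samhd1, Dtx3l, Parp14, Stat2, Adar, Parp9, Oasl2 and Eif2ak2), which is 21.6% of the members where the share over all genes was 6.24%. By the same rule 1 member, Isg20, was higher, where the share over all genes was 5.58%. The count of 8 came to 5 without control library 2 and to 5 without IGF-1 library 1. In 10 members every IGF-1 library lay below every control library, 27.0% of the members against 9.17% of all genes, and in 1 member, again Isg20, every IGF-1 library lay above, against 8.81% of all genes. DESeq2 called 4 of these genes lower at an adjusted p under 0.05 (Samhd1, Parp14, Stat2 and Dtx3l) in a fit that called 3.39% of all genes. EdgeR without the filter on low counts called 3 (Samhd1, Stat2 and Parp14; 1.84% of all genes), and it called Samhd1 alone with a stricter filter (2.06% of all genes) or with library-size scaling (0.46%), and Stat2 alone without control library 1 (0.39%). These 4 had an unadjusted p under 0.05 in all 14 fits made, but the fits reuse the same 6 libraries and are not independent. When each library was left out, their edgeR adjusted p reached 0.299 (Samhd1), 0.544 (Parp14), 0.538 (Stat2) and 0.500 (Dtx3l).

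Type I interferons bind the receptor made of IFNAR1 and IFNAR2, whose kinases JAK1 and TYK2 activate STAT2. With IRF9, STAT2 is part of the complex ISGF3, which binds the interferon-stimulated response element (ISRE). IFN-γ acts through its own receptor on genes with a gamma-activated sequence (GAS), and it also raises IRF1, which can bind ISRE-like sites. Many antiviral genes answer both interferons, while some, such as Rsad2 and the IFIT family, are known chiefly as type I targets.

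The promoter letters of the members were searched for the cores of both elements. In the 250 bases before the RefSeq gene start (build GRCm38.p6), which were held for 30 of the 37 members, an ISRE core of GAAANNGAAA on either strand was found in 10 members, 33.3%, and in 3.46% of the 27025 genes of that table. A GAS core, TTCNNNGAA on either strand, was found in 6 members, 20.0%, against 8.13% of all genes. At least 1 of the cores was held by 14 members, 46.7%, against 11.1% of all genes. The sequences below are the stretches around the ISRE cores of 8 members. They are shown because the core occurs both in members that averaged 10 CPM or more in these libraries (Stat2, Bst2, Ddx60 and Oas1a) and in members below that (Isg15, Ifit1, Ifit3 and Rsad2). Each is written 5′ to 3′ on the gene's strand, and capitals mark the core, which appears as its reverse complement where it lies on the other strand.
Stat2, chr10:128270256-128270305, strand +: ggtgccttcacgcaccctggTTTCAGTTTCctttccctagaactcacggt
Bst2, chr8:71537567-71537622, strand -: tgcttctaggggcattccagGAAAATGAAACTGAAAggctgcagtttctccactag
Ddx60, chr8:61928014-61928086, strand +: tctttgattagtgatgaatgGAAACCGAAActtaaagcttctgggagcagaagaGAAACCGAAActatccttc
Oas1a, chr5:120907526-120907565, strand -: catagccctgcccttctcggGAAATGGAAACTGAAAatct
Isg15, chr4:156200855-156200916, strand -: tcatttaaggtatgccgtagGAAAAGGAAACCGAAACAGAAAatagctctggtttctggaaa
Ifit1, chr19:34640765-34640833, strand +: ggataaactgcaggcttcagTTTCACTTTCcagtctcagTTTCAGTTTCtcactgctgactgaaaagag
Ifit3, chr19:34583353-34583436, strand +: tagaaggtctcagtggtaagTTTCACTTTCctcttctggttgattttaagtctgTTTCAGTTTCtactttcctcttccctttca
Rsad2, chr12:26456543-26456592, strand -: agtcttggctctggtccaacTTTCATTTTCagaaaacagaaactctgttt

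In Isg15 3 cores overlapped, in Bst2 and Oas1a 2 cores overlapped, and in Ifit1, Ifit3 and Ddx60 2 separate cores were found. The next sequences hold the GAS core, again in capitals, of the member with the smallest p, Samhd1, and of the only member higher at an unadjusted p under 0.05, Isg20.
Samhd1, chr2:157135303-157135346, strand -: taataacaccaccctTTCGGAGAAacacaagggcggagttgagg
Isg20, chr7:78913331-78913379, strand +: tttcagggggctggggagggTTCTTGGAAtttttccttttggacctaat

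A match is a description of the letters and does not show binding. Members with an ISRE core had a median log2 fold change of -0.05 (10 genes) and those without one of -0.24 (20 genes). These sets also differed in level. Those averaging under 10 CPM were Isg15, Ifit1, Ifit3, Oas3 and Rsad2 with the core, and Ifit2, Oasl1, Cmpk2 and Ifi44 without it. The part of level in the difference was not tested. Members with a GAS core had a median of -0.24 (6 genes) and those without of -0.17 (24 genes).

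Libraries held 32573713 to 39206449 counts, and values below are CPM, counts scaled to library size with TMM factors. All 10 ILC3 markers were at 10 CPM or more on average. Summed markers of natural killer cells and ILC1 were 65.2 to 78.3 CPM in controls and 105 to 128 CPM with IGF-1, with Eomes and Klra8 at 0. Most of that difference was Ncr1, a receptor gene that a subset of ILC3 also carries (28.2 and 71.5 CPM on average), while Klrb1c averaged 38.2 and 30.7 CPM. Summed epithelial markers were 33.8 to 48.7 and 16.4 to 23.9 CPM, nearly all of it Epcam (38.6 and 17.6 CPM on average). The other 7 epithelial markers averaged under 1 CPM, and among them Muc2 (0.319 and 1.39 CPM) and Cdh1 were higher in every IGF-1 library. Summed T cell markers were 43.8 to 53.9 and 38.6 to 48.9 CPM, and those of B and plasma cells were 18.6 to 558 and 28.5 to 36.5 CPM, the highest value coming from Jchain in control library 3. The part of other cells in the differences below was not tested. In bulk libraries fewer cells of a type and less RNA per cell cannot be told apart.

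Levels of the members spanned a wide range. Per kilobase of exon, averaged over all libraries, Bst2 was highest at 297 CPM per kb, followed by Ifi35 at 138 and Samhd1 at 70.1 CPM per kb. At the other end, Rsad2 stood at 0.981, Oasl1 at 0.964, Mx2 at 0.516, Ifi44 at 0.442 and Ifit2 at 0.297 CPM per kb. Genes often used as the signature of a type I response, Isg15 (3.08 CPM per kb) and Ifit1 (2.86 CPM per kb), were thus among the low members, while the genes of the ISGF3 complex were not (Irf9 at 56.8 CPM per kb). Split at a mean of 10 CPM without regard to length, 27 members were at or above it and 10 below (Isg15, Ifit1, Ifit2, Ifit3, Oas3, Oasl1, Rsad2, Cmpk2, Mx2 and Ifi44).

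**Figure D1:**
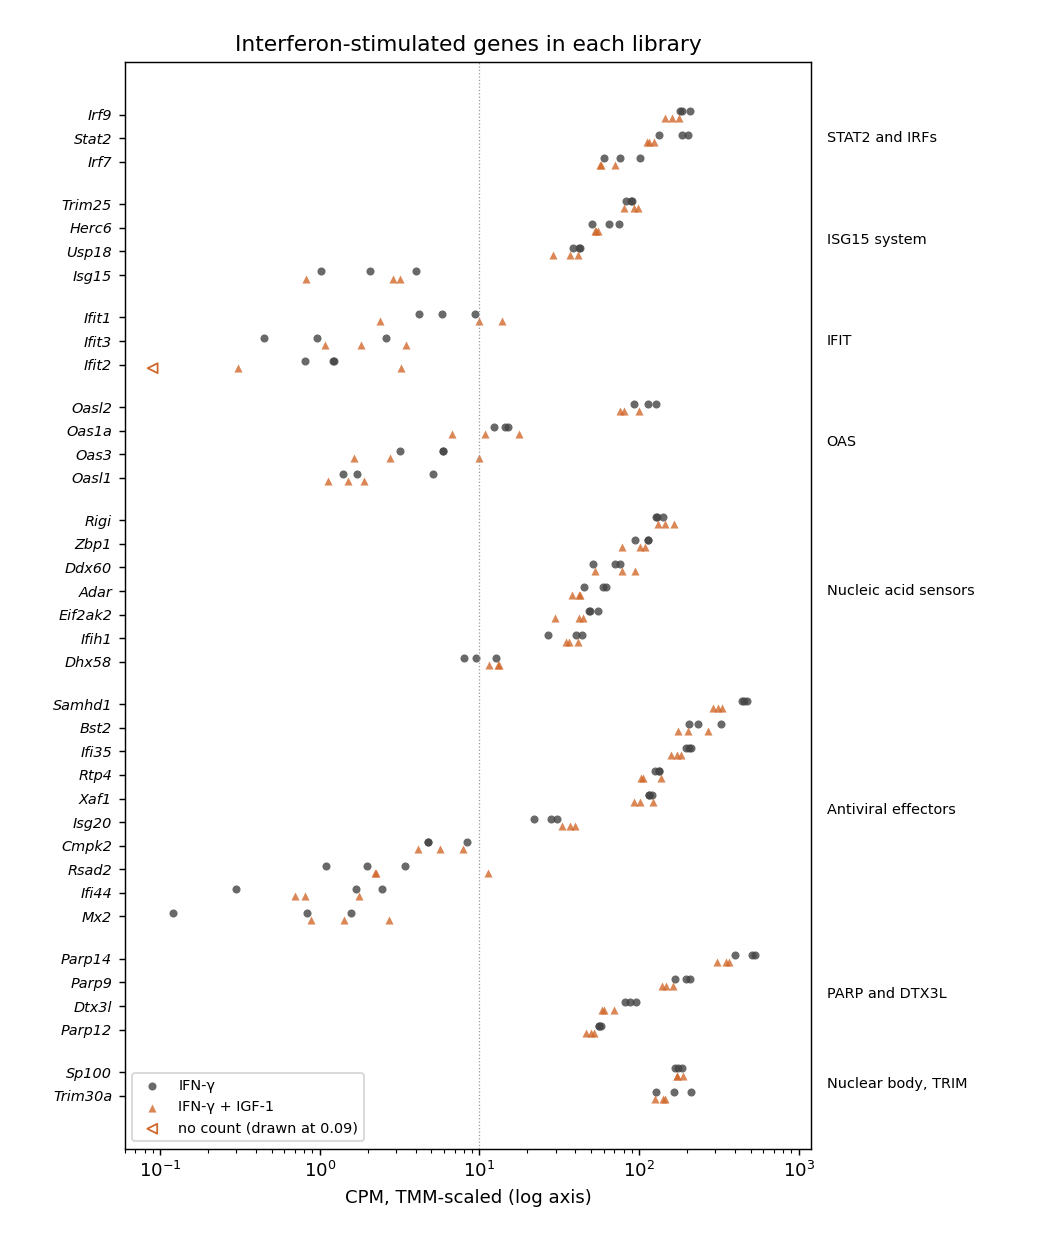
TMM-scaled CPM (log axis) of each of the 37 genes in each of the 6 libraries, with genes grouped by role; each point is 1 library and an open triangle marks a library with no count. The 10 genes with a mean under 10 CPM spread widely within both groups, and the points of Samhd1, Dtx3l and Parp14 separate by group.

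The transcription factors of the response come first. STAT2, a subunit of ISGF3, is specific to type I and type III signalling. Stat2 stood at 133, 202 and 185 CPM in control libraries 1 to 3 and at 113, 123 and 116 CPM in IGF-1 libraries 1 to 3. The groups did not overlap, and control library 1 was nearest to the IGF-1 libraries. The log2 fold change was -0.56 (SE 0.16; edgeR adjusted p = 0.180, unadjusted p = 0.00487). When each library was left out in turn, it ranged from -0.72 to -0.44, with edgeR adjusted p-values from 0.0465 to 0.538. The only one of these fits to pass an adjusted p of 0.05 was that without control library 1 (-0.72). Irf9, the DNA-binding subunit of ISGF3, stood at 208, 179 and 187 CPM in controls and at 161, 145 and 177 CPM with IGF-1. All IGF-1 values were below the controls, but by a margin smaller than the spread in either group (log2 fold change -0.25, SE 0.13; edgeR adjusted p = 0.476). Irf7, which drives the genes of most type I interferons, stood at 101, 60.1 and 76.4 CPM and at 57.4, 71.1 and 57.2 CPM with IGF-1. These groups overlapped, control library 1 being the highest (-0.36, SE 0.19; edgeR adjusted p = 0.504).

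The 4 members grouped under the ISG15 system gave no difference beyond their spread, and the group does not hold every gene of that system. ISG15 is a ubiquitin-like protein that is joined to other proteins, HERC6 is its ligase in mice, USP18 removes it and also dampens the type I receptor, and TRIM25 is a ubiquitin ligase that acts on RIG-I. Isg15 itself stood at 4.00, 1.02 and 2.06 CPM in controls and at 0.824, 3.19 and 2.89 CPM with IGF-1. Its groups overlapped fully, on 257 counts in all control libraries and 250 in all IGF-1 libraries (log2 fold change -0.04, SE 0.68; edgeR adjusted p = 0.989). Trim25, the most abundant of the 4 in CPM, stood at 82.5, 90.8 and 89.6 CPM and at 80.8, 93.3 and 98.4 CPM with IGF-1 (0.05, SE 0.13). Herc6 stood at 50.5, 74.7 and 65.3 CPM and at 53.1, 53.9 and 55.1 CPM with IGF-1 (-0.23, SE 0.16). In Herc6, as in Stat2, control library 1 was the lowest control. Usp18 averaged 41.1 ± 2.10 and 35.9 ± 6.29 CPM (SD, n = 3 each), with an overlap.

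The IFIT and OAS families are the classical antiviral targets of ISGF3. IFIT proteins bind viral RNA ends that lack the host's cap marks. The 3 IFIT genes had positive log2 fold changes, from 0.13 to 0.66, none larger than its standard error. Leaving out IGF-1 library 3 turned Ifit1 to -0.07, and leaving out IGF-1 library 2 turned Ifit2 to -2.77. Ifit1 stood at 4.19, 5.80 and 9.44 CPM in controls and at 2.39, 9.92 and 13.9 CPM with IGF-1. The lowest and the highest value were both in the IGF-1 group (log2 fold change 0.43, SE 0.55; edgeR adjusted p = 0.830). Ifit3 stood at 2.60, 0.957 and 0.446 CPM and at 1.08, 3.45 and 1.82 CPM with IGF-1 (0.66, SE 0.77), again with an overlap. Ifit2 had 116 counts in all control libraries and 124 in all IGF-1 libraries, with no count in IGF-1 library 3, which allows up to 0.0802 CPM there (3 counts, counting error only).

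OAS enzymes make oligoadenylates that switch on RNase L, and the OASL proteins are their relatives. Oasl2, the most abundant of the 4 in CPM, stood at 93.3, 113 and 129 CPM in controls and at 80.5, 75.6 and 99.6 CPM with IGF-1. IGF-1 library 3 lay above control library 1, so the groups overlapped (log2 fold change -0.39, SE 0.16; edgeR adjusted p = 0.357, unadjusted p = 0.0315). Oasl1 had the most negative value of all members, -0.87, with an SE of 0.63. Its levels were 1.72, 1.41 and 5.13 CPM and 1.88, 1.13 and 1.496 CPM with IGF-1, and without control library 3 the log2 fold change was -0.06. Oas1a averaged 10 CPM or more, and Oas3 did not. Both overlapped between groups, with log2 fold changes of -0.25 (SE 0.32) and -0.07 (SE 0.61). Near-identical relatives in the IFIT and OAS families may share reads, and how the counting treated such reads is not given in the sources used here.

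Among the 7 genes that sense or act on foreign nucleic acid, 2 were lower at an unadjusted p under 0.05 (6.24% of all genes), with no overlap (9.17% of all genes). Adar, which edits adenosine to inosine in double-stranded RNA, stood at 62.4, 59.6 and 45.2 CPM in controls and at 38.3, 43.0 and 42.2 CPM with IGF-1. Control library 3 came within a few CPM of the IGF-1 libraries (log2 fold change -0.44, SE 0.16; edgeR adjusted p = 0.294). Eif2ak2, which encodes the kinase PKR that stops translation, stood at 49.5, 55.1 and 48.4 CPM and at 42.3, 29.6 and 44.3 CPM with IGF-1 (-0.40, SE 0.17; edgeR adjusted p = 0.401). Rigi, Ifih1, Dhx58 and Ddx60 did not share this sign. Rigi, the most abundant of the 7 in CPM, stood at 128, 141 and 129 CPM and at 167, 131 and 145 CPM with IGF-1 (0.15, SE 0.13; edgeR adjusted p = 0.709). Ifih1, which encodes the sensor MDA5, differed by 0.02 (SE 0.19), Dhx58, which encodes its relative LGP2, by 0.32 (SE 0.25), and the helicase gene Ddx60 by 0.19 (SE 0.21). Zbp1, a sensor of Z-form nucleic acid, differed by -0.15 (SE 0.15). All 5 overlapped between groups, and with library-size scaling Ifih1 took the other sign (-0.01).

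The 10 antiviral effectors hold the member nearest to the threshold. Samhd1, which encodes an enzyme that breaks down deoxynucleotides and so limits reverse transcription, stood at 444, 476 and 455 CPM in controls and at 329, 314 and 293 CPM with IGF-1. The lowest control lay far above the highest IGF-1 library, and the SDs were 15.9 and 18.3 CPM. The log2 fold change was -0.55 (SE 0.11), or -31.9%, with an edgeR adjusted p of 0.0717 and an unadjusted p of 0.000441. The adjusted p was 0.0494 by edgeR with library-size scaling, 0.0227 with a stricter filter on low values, 0.0129 with none, and 0.000146 by DESeq2. It ranged from 0.0702 to 0.299 when each library was left out in turn, with log2 fold changes from -0.60 to -0.51.

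Isg20, an RNA exonuclease, was the member with higher values in every IGF-1 library. It stood at 30.8, 22.0 and 28.2 CPM in controls and at 33.2, 40.0 and 36.8 CPM with IGF-1 (log2 fold change 0.44, SE 0.17; edgeR adjusted p = 0.341, unadjusted p = 0.0285). Ifi35, a partner of the adaptor NMI, stood at 211, 198 and 205 CPM and at 174, 183 and 159 CPM with IGF-1. These groups did not overlap (-0.25, SE 0.11; edgeR adjusted p = 0.424, unadjusted p = 0.0510). Bst2, which encodes tetherin, a protein that holds budding virus at the cell surface, averaged 255 ± 61.8 CPM in controls and 216 ± 48.0 CPM with IGF-1 (SD, n = 3 each), with an overlap. Rtp4 and Xaf1 differed by -0.18 (SE 0.14) and -0.15 (SE 0.13), also with an overlap.

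Rsad2, which encodes viperin, had the most positive log2 fold change of all members, 1.28 (SE 0.70; edgeR adjusted p = 0.520). It stood at 1.10, 1.97 and 3.40 CPM in controls and at 2.24, 11.3 and 2.22 CPM with IGF-1. The value came from IGF-1 library 2, and without that library the log2 fold change was 0.05. Mx2, a GTPase gene that RefSeq lists as a transcribed pseudogene, had 91 counts in all control libraries and 181 in all IGF-1 libraries (0.99, SE 0.90). Cmpk2 and Ifi44 differed by less than their standard errors (-0.01, SE 0.37, and -0.44, SE 0.84).

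All 4 PARP and DTX members were lower in every IGF-1 library than in any control, as were 9.17% of all genes and 10.5% of those at 10 CPM or more. PARP9, PARP12 and PARP14 belong to the ADP-ribosyltransferase family, and DTX3L is a ubiquitin ligase that works in a complex with PARP9. Parp14, the most abundant of the 4 in CPM, stood at 399.7, 535 and 507 CPM in controls and at 364, 351 and 309 CPM with IGF-1. Control library 1 was the lowest control (log2 fold change -0.49, SE 0.14; edgeR adjusted p = 0.177). Dtx3l stood at 81.7, 96.0 and 88.2 CPM and at 70.0, 60.8 and 58.4 CPM with IGF-1 (-0.49, SE 0.13; edgeR adjusted p = 0.168). Parp9 stood at 197, 209 and 169 CPM and at 139, 148 and 163 CPM with IGF-1 (-0.35, SE 0.13; edgeR adjusted p = 0.308). The margin in Parp9 was narrow, between control library 3 and IGF-1 library 3. Parp12 averaged 56.7 ± 0.816 and 49.7 ± 2.63 CPM (SD, n = 3 each; -0.19, SE 0.13; edgeR adjusted p = 0.614). Parp9 and Dtx3l are neighbours whose gene models overlap in RefSeq, and the kit does not mark strand, so their reads cannot be told apart where they overlap and the pair is not independent. Of the other members named as lower at an unadjusted p under 0.05, Stat2, Adar and Eif2ak2 also overlap another protein-coding model.

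The remaining members split. Sp100, a component of nuclear bodies, stood at 177, 186 and 168 CPM in controls and at 174, 188 and 173 CPM with IGF-1, a log2 fold change of 0.01 (SE 0.11) that was -0.02 with library-size scaling. Trim30a, a TRIM family gene, stood at 128, 213 and 167 CPM and at 141, 127 and 145 CPM with IGF-1 (-0.30, SE 0.17; edgeR adjusted p = 0.552).

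**Figure D2:**
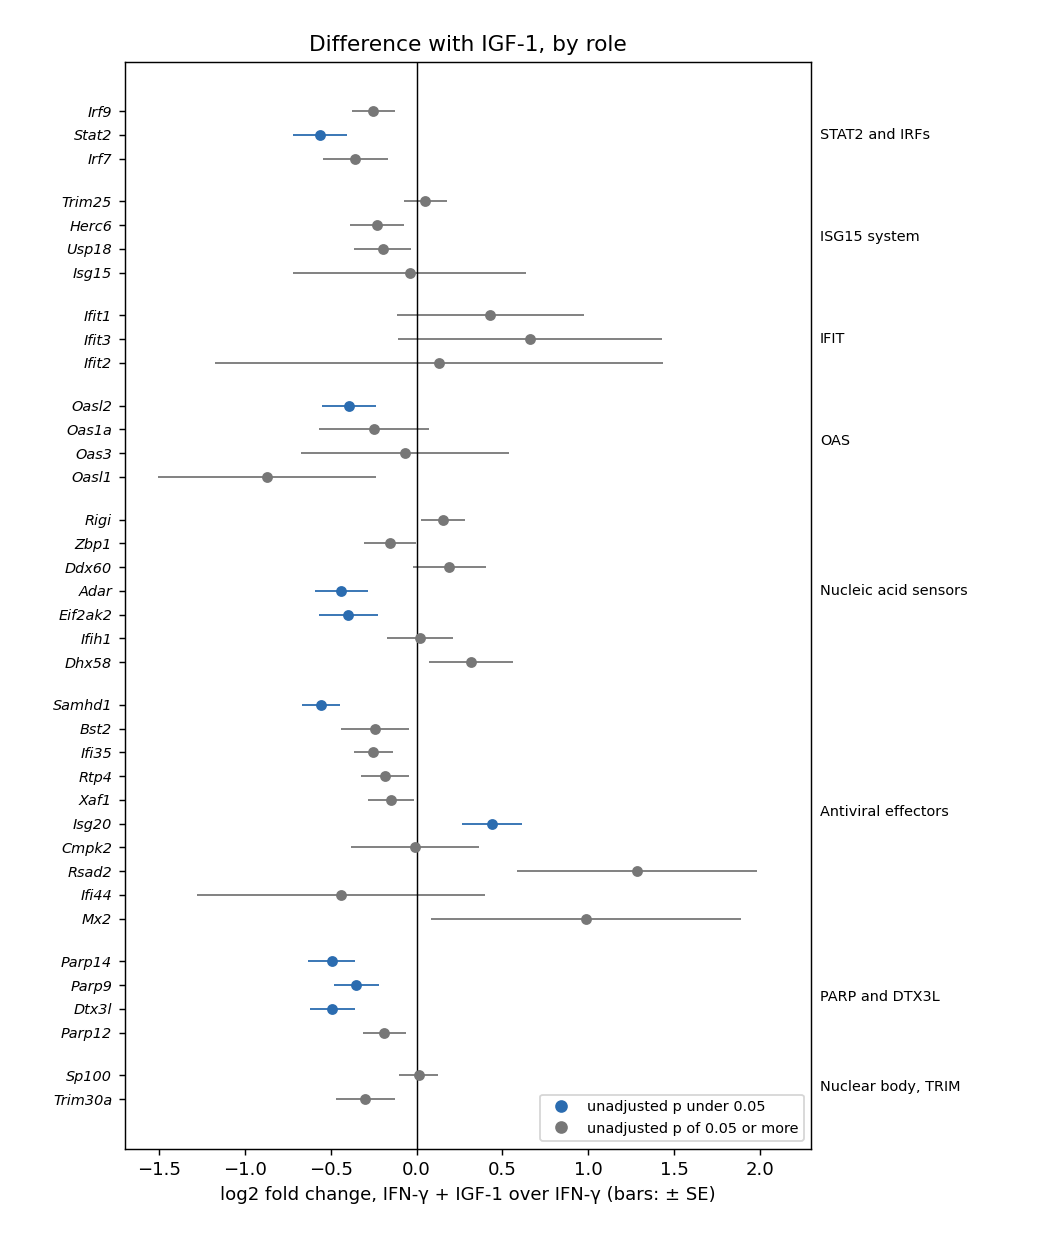
Log2 fold change (IFN-γ with IGF-1 over IFN-γ alone) of the 37 genes by role, from edgeR, with bars of 1 SE; blue points have an unadjusted p under 0.05. The PARP and DTX genes, Samhd1 and Stat2 lie left of 0 with short bars, the IFIT genes, Rsad2 and Mx2 lie right of 0 with long bars, and no gene passed an adjusted p of 0.05.

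The 27 members at 10 CPM or more and the 10 below it differed in spread between libraries as well as in level. Of the 27, 20 had a negative sign, with a median log2 fold change of -0.24 against 0.00 over all genes at that level. All 8 lower members at an unadjusted p under 0.05 were among them, 29.6% against 8.08% of all genes at that level, and so were all 10 whose IGF-1 libraries lay below the controls, 37.0% against 10.5%. Of the 10 low members, 5 had a negative sign and the median was 0.06, and none was lower at an unadjusted p under 0.05 (background 3.03%) or lower without overlap (background 6.89%). The median coefficient of variation between control libraries was 10.7% in the 27 and 59.0% in the 10, where it ran from 21.9% to 86.0%. The difference between the medians of both sets was not tested.

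Summed over the 37 genes, the libraries stood at 3498, 3757 and 3569 CPM in controls and at 2941, 3081 and 2915 CPM with IGF-1. The groups did not overlap, and Samhd1 and Parp14 give a large share of the sum. Summed over the 10 low members, they stood at 25.3, 26.6 and 36.4 CPM and at 18.2, 53.7 and 31.8 CPM with IGF-1. IGF-1 library 2 was the highest library for 5 of these 10 (Ifit2, Ifit3, Oas3, Mx2 and Rsad2), and IGF-1 library 1 for none.

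**Figure D3:**
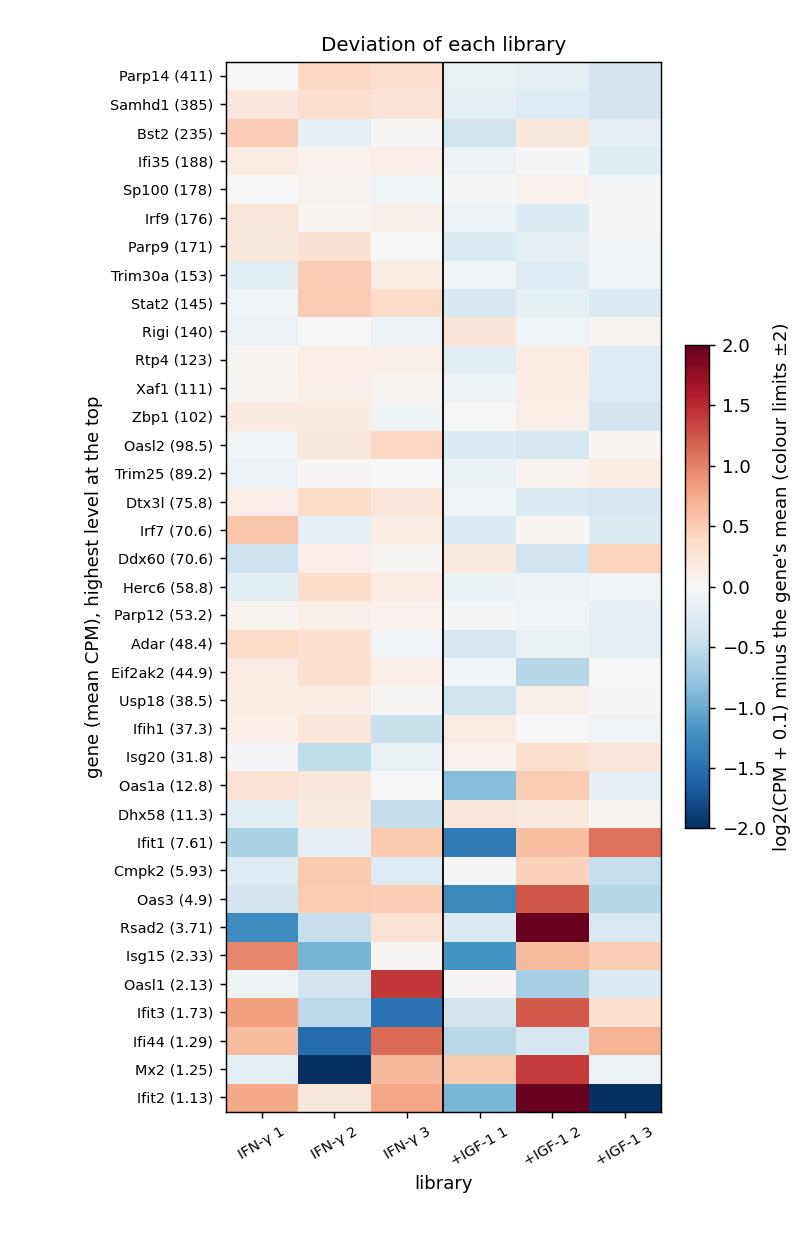
Deviation of each library from the gene's mean on the log2(CPM + 0.1) scale, with genes ordered by mean CPM from the top and the groups parted by a line. In 11 of the 27 genes at 10 CPM or more the colours separate by group, 10 of them lower with IGF-1, and 16 overlap. In the lower rows IGF-1 library 2 stands out for Ifit2, Ifit3, Oas3, Mx2 and Rsad2.

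Of the 46 further interferon-stimulated genes listed with the pathway, 9 had counts and a mean under 10 CPM, and 5 of these 9 were highest in IGF-1 library 2. The others were highest elsewhere, such as Mx1 in control library 1 (24 counts) and Oas1g in IGF-1 library 1 (24 counts). The genes named in this paragraph were chosen after their values were seen. Oas2 had 61 counts in IGF-1 library 2 and none in any other library, and Ifna2, an interferon-α gene, had 8 counts there and none elsewhere. Fcgr1, a monocyte and macrophage gene, had 54 counts there and at most 10 in any other library. The summed markers of myeloid cells were 27.4 CPM in that library and 17.0 to 20.99 CPM in the others, and their part in the values of that library was not tested. Without IGF-1 library 2, the median log2 fold change of the members was -0.27 in place of -0.19.

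The long nuclear RNAs Malat1, Neat1 and 3 others, summed, varied between libraries. They stood at 1578, 2862 and 2672 CPM in controls and at 1677, 1160 and 2209 CPM with IGF-1, low in control library 1. Of the members lower at an unadjusted p under 0.05, Samhd1, Dtx3l, Parp14, Stat2 and Oasl2 also had their lowest control value there. Adar, Parp9 and Eif2ak2 had theirs in control library 3. Among the other members at 10 CPM or more, Trim30a, Herc6, Ddx60, Rigi, Trim25, Rtp4, Xaf1 and Parp12 were also lowest among controls in library 1. Some members did not follow this pattern: Irf7 and Bst2 were highest in control library 1. In the IGF-1 group Stat2 was highest in library 2, where the sum was lowest. Summed mitochondrial RNAs were 15141 to 19584 CPM in controls and 19003 to 22398 CPM with IGF-1. The part of RNA composition in the members' differences was not tested.

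Genes of the interferon receptors, their kinases and linked regulators were mostly lower with IGF-1, and none passed the adjusted threshold. These genes include interferon targets and inhibitors of the pathway, such as Irf1 and Socs1, so not all lie upstream of the members. Of 15 receptor, kinase, transcription factor and regulator genes, 12 had a negative sign, 7 were lower and 1 higher at an unadjusted p under 0.05 (6.24% and 5.58% of all genes), and the median log2 fold change was -0.31. Ifnar1 stood at 38.5, 44.8 and 53.3 CPM in controls and at 27.5, 26.8 and 36.8 CPM with IGF-1 (-0.59, SE 0.18; edgeR adjusted p = 0.226). Ifnar2 stood at 29.5, 29.3 and 31.2 CPM and at 24.0, 24.0 and 24.6 CPM with IGF-1 (-0.31, SE 0.15; edgeR adjusted p = 0.468). Neither receptor chain overlapped between groups. Of the kinases, Tyk2 averaged 108 ± 2.14 and 90.0 ± 9.68 CPM, with no overlap, and Jak1 averaged 419 ± 25.7 and 429 ± 16.0 CPM, with an overlap (SD, n = 3 each).

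Irf1, an early interferon target, averaged 749 ± 17.7 and 561 ± 30.7 CPM (-0.42, SE 0.11; edgeR adjusted p = 0.142). Socs1, which encodes an inhibitor of JAK kinases, averaged 155 ± 15.4 and 99.9 ± 12.5 CPM (-0.63, SE 0.14; edgeR adjusted p = 0.0938). Of the IFN-γ receptor chains, Ifngr2 averaged 38.0 ± 5.22 and 23.2 ± 0.898 CPM (-0.71, SE 0.16; edgeR adjusted p = 0.105), and Ifngr1 differed by -0.21 (SE 0.15) with an overlap. In Irf1, Socs1 and Ifngr2 every IGF-1 library lay below every control.

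The 9 type I and type III interferon genes on the list were close to absent from these libraries. They gave 16 counts in all 6 libraries together, 5 of the 9 had none, and none was tested. Of 10 tested genes that lead to interferon production, such as adaptors, kinases and Toll-like receptors, 6 had a negative sign, with a median of -0.04. Of 46 further interferon-stimulated genes, 40 were tested, 29 had a negative sign, 10 were lower and 3 higher at an unadjusted p under 0.05 (again 6.24% and 5.58% of all genes), and the median was -0.18. Over these pathway lists together, 50 of 68 tested genes had a negative sign with a median of -0.20, close to the -0.19 of the members, and none passed the adjusted threshold.

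The guanylate-binding proteins, GTPases known as strong IFN-γ targets, gave larger differences. All 10 tested had a negative sign, with a median of -0.51, and 2 fell past the adjusted threshold, Gbp2 and, named after its value was seen, Gbp11. Gbp2 averaged 1559 ± 106 CPM in controls and 623 ± 19.0 CPM with IGF-1 (SD, n = 3 each), a log2 fold change of -1.32 (SE 0.11; edgeR adjusted p = 0.00180). Without IGF-1 library 1 the adjusted p of Gbp2 by edgeR was 0.0692, and that of Gbp11 was above 0.05 in each leave-one-out fit other than the fit without control library 1, reaching 0.127, with log2 fold changes of -1.57 to -1.31. The 10 tested immunity-related GTPases of the IRG and TGTP families had a median of -0.15, 7 with a negative sign and none past the adjusted threshold. No test of the difference between these lists and the members was made.

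**Figure D4:**
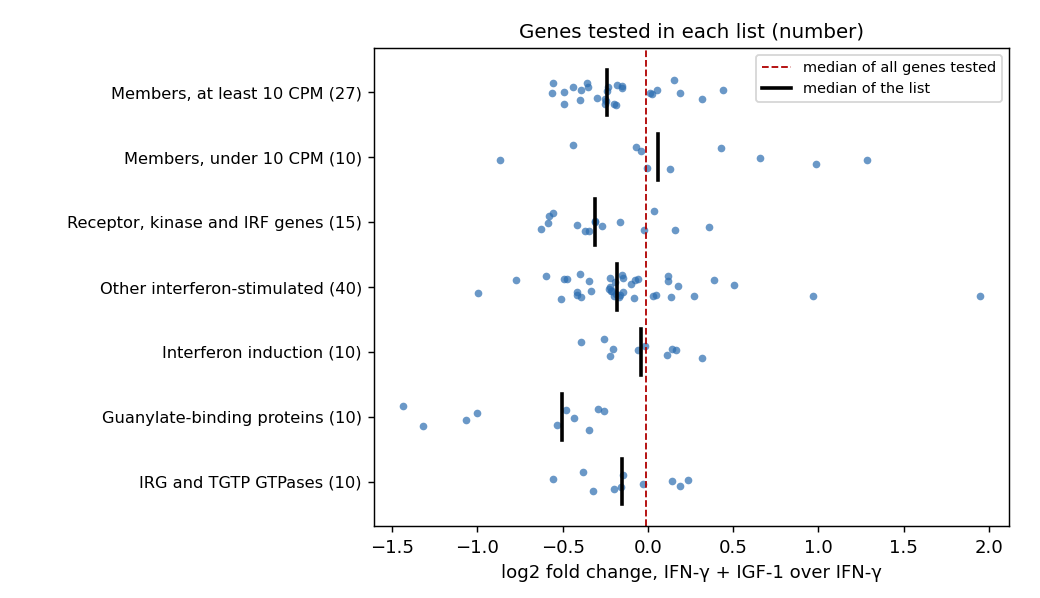
Log2 fold changes of the genes tested in each list (points), with the list's median (black line) and the median of all genes tested (dashed line). The members at 10 CPM or more centre on -0.24, those under it on 0.06 and the guanylate-binding proteins on -0.51, while the median of all genes is -0.01.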

How the data were processed

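RNA was measured in 6 libraries prepared by SMART-Seq HT (per the labels' protocols), a full-length cDNA method that does not mark strand. The authors deposited raw, unnormalized counts for each gene symbol. The submitters' processing notes name fastp 0.23.2, HISAT2 2.2.1, SAMtools 1.15.1, featureCounts 1.5.3 and the build GRCm39. Which annotation was used, whether strand was considered and how multi-mapping reads were counted is not stated in what was used here. Samples were grouped by their titles, 3 per group.

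Low genes were dropped by filterByExpr on the groups (at least 10 counts, total at least 15), which took out 0.0806% of counts. The rest were scaled by TMM and tested with edgeR 4.0.16 (R 4.3.3) by the quasi-likelihood test with group as the only term. P-values were adjusted by Benjamini-Hochberg over all 13483 genes. SE is the log2 fold change divided by the square root of F. The fit was checked on simulated data. Of 3 libraries against 3, an exact test on 1 gene cannot go below p = 0.1, so none is given. Replicates of a group differed by more than counting noise (chi-square per degree of freedom 39.0 to 88.5). Alternatives were other scalings, DESeq2 1.42.0, other filters, a replicate term and leaving out each library.

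The 37 members and the other lists were chosen with earlier results of these data known. Any member may be named. Values in every library are given for members with an unadjusted p under 0.05, for Stat2, Irf9 and Irf7, and for the members of each role group with the highest level and the largest difference (by mean CPM and by absolute log2 fold change). Isg15 and Ifi35 were given outside this rule, Ifi35 after its values were seen. Of other genes, Ifnar1, Ifnar2, Jak1, Tyk2, Irf1, Socs1, the IFN-γ receptor genes and Gbp2 were named by rule. Exon lengths came from GENCODE release M21 (all exons merged), and promoters from RefSeq on GRCm38.p6, which held 30 of the members; Rigi was matched under its older symbol Ddx58. A count of 0 was given a limit of 3 counts. Some items are not reported here.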

Additional observations from a re-analysis of the deposited data

How the results depend on the processing

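The 10 members under 10 CPM varied more between libraries than the others did, and the part of depth in that spread was not tested. Where 67 genes were called over the whole table, there were 8 with a replicate block, 481 by DESeq2, 429 without the filter on low counts and 178 with the stricter filter, and 0 to 55 when each library was left out. Same-numbered libraries did not deviate together from their group means (correlations -0.05, 0.00 and 0.06). With 3 libraries per group this cannot tell whether the numbers pair them. The block moved no member past or back over the adjusted threshold. Where 0 members were called, there were 4 by DESeq2, 3 without the filter, 1 with the stricter filter, 1 with library-size scaling, and 0 to 1 when each library was left out. The number of members with a negative sign stayed between 21 and 27 in all fits, the lowest being of the 27 members left by the stricter filter. The median of the members ranged from -0.27 to -0.13 when each library was left out, the ends being without IGF-1 library 2 and without IGF-1 library 1. Counts at an unadjusted p under 0.05, an analysis added after the data were seen, ranged from 5 to 9 lower and from 0 to 3 higher when each library was left out, and 2 were higher without the filter. Signs turned with the block for Isg15 (0.024) and Ifit2 (-1.76), with upper-quartile scaling for Cmpk2 (0.00074), with library-size scaling for Ifih1 (-0.0086) and Sp100 (-0.020), and with the stricter filter for Sp100 (-0.00047). When each library was left out, signs turned for 10 members, with ranges of -0.40 to 0.58 for Isg15, -0.0090 to 0.13 for Trim25, -0.074 to 0.88 for Ifit1, -2.77 to 0.71 for Ifit2, -0.66 to 0.031 for Oas1a, -1.19 to 0.34 for Oas3, -0.16 to 0.16 for Ifih1, -0.28 to 0.31 for Cmpk2, -0.97 to 0.13 for Ifi44 and -0.030 to 0.048 for Sp100. The cause of these shifts was not tested.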
